A study of Mus musculus with 9 samples.

Results

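Genes that transforming growth factor β (TGFβ) is known to induce in fibroblasts were followed in primary mouse embryo fibroblasts (MEFs) with and without Tgif1. A list of 35 such genes was used, drawn from knowledge of the TGFβ response but chosen with earlier results of these data known. Shares of the list set beside those of all genes therefore describe it and are not a test. Every probe-set annotated to 1 of the 35 genes alone was taken. This gave 77 of the 45101 probe-sets on the array, for 34 of the 18194 genes measured. The remaining gene, Loxl2, has only probe-sets that are annotated jointly to it and to another gene, so no value is given for it.

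Arrays were run on MEFs without Tgif1 (Tgif1 -/-) at passage 3, on wild type MEFs of the same passage (P3) and on wild type MEFs taken to passage 5 (P5), with 3 arrays for each, all of C57BL/6J x 129Sv/J background and grown from mid-gestation embryos in medium with serum. No TGFβ was added to any culture, so the values are those of cells in serum, and the null lacked the gene from the start of development. Null cells at passage 5 were not analysed here, and passage and genotype can therefore be compared only against the same wild type P3 arrays. Each value is a log2 signal, so a difference of 1 is a 2-fold change, and genes hit by more than 1 probe-set are shown by their brightest one on average.

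TGFβ signals through a pair of receptor kinases that phosphorylate Smad2 and Smad3, which join Smad4, enter the nucleus and activate target genes. Tgif1 is a homeodomain corepressor that binds these Smads, or its own DNA motif, and recruits histone deacetylases, which limits the response. In fibroblasts the response is best known for the myofibroblast program, in which contractile proteins such as smooth muscle α-actin, matrix proteins and the enzymes that cross-link them are made together. Serial passage of MEFs leads to slower growth and senescence. The question the comparison addresses is whether target genes were higher at passage 3 when the corepressor was missing.

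Promoter sequence is shown first because Smads and Tgif1 each have a DNA motif. The bases upstream of the annotated start were taken from a RefSeq promoter table (assembly GRCm38.p6), which held 32 start sites of 19 of the 34 genes, and were searched on both strands for the Smad motif CAGAC, the palindromic Smad motif GTCTAGAC, the Tgif motif TGTCA and the CArG box of serum response factor. None of these motifs contains another. The Smad motif was in 14 of the 32 member windows (43.8%) and in 42.2% of all 32851 windows, and the Tgif motif was in 6 member windows (18.8%) and in 40% of all. Counted by gene, with more start sites for some genes than for others, the Smad motif was in 13 of the 19 member genes (68.4%) and 45.8% of all 27025 genes, and the Tgif motif in 6 of the 19 (31.6%) and 43.7% of all. The palindromic Smad motif and the CArG box were in 0 member windows, against 0.167% and 1.47% of all. The CArG box was searched only as CC, then 6 letters that are each A or T, then GG. Boxes with another letter in that core were not counted, so the 0 does not show that such boxes are absent. Among the genes whose values are given array by array below, only Acta2, Cnn1, Id4 and Tsc22d1 had a start site in the promoter table. All of these but Id4 held a motif. Tgm2, Cthrc1, Bhlhe40, Fn1, Thbs1, Lox and Snai2 were absent from it and were not searched. The stretches around the motifs are printed on the strand of the gene, 5′ to 3′, with the motif in capitals, so that a motif on the other strand reads TGACA or GTCTG. A match is a run of letters and not a shown binding site.
Acta2, upstream of the start, chr19:34255594-34255623, minus strand, a Tgif motif followed by a Smad motif: TGACActagcccagtGTCTGggcatttgag
Cnn1, upstream of the start, chr9:22099100-22099124, plus strand, a Tgif motif: gtggaaacaaTGACAcagtcagctc
Cnn1, nearer to the start, chr9:22099130-22099154, plus strand, a Tgif motif: accaaggctcTGACAtcaggaggtg
Tsc22d1, upstream of an internal start, chr14:76488186-76488205, plus strand, a Smad motif: cttgcCAGACagagcagata
Tsc22d1, upstream of a further internal start, chr14:76504199-76504223, plus strand, a Smad motif: gctcggctggGTCTGgttgcaaaga

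Levels of Tgif1 followed the labels. The log2 signal of Tgif1 was between 2.48 and 3.21 on the null arrays and between 9.72 and 10.18 on the wild type arrays, and arrays of 1 group correlated at 0.996 to 0.999. Of 8 fibroblast markers all had a signal above 4 on at least 3 arrays, though Lum did so only on wild type arrays. The means of Lum were 3.09 in the null, 3.78 in P3 and 5.44 in P5 MEFs. Its null difference from P3 of -0.70 did not pass (adjusted p = 0.64 by limma). The mean level of the list was 10.63 to 10.80 in the null, 10.72 to 10.90 in P3 and 11.12 to 11.22 in P5 MEFs. Between null and P3, 1 of the 8 passed, Dcn, which was lower in the null (-0.73, adjusted p = 0.032 by limma). Over the 10009 genes with a signal above 4 on at least 3 arrays, 2.67% were called higher in the null than in P3 and 1.92% lower. The marker lists of skeletal muscle and macrophages, unlike that of fibroblasts, had their highest levels in the null. The mean level of 9 skeletal muscle genes was 7.23 to 7.84 in the null, 5.53 to 5.63 in P3 and 4.41 to 4.49 in P5 MEFs. Of the 9, 7 were called higher in the null than in P3. From P3 to P5, 4 fell and 1 rose, against 12.8% and 10.7% of the 10009 genes. The gene that rose was Acta1 (1.60, adjusted p = 0.00039 by limma), with means of 10.92, 10.57 and 12.17. Of the defining muscle regulators, Myod1 lay at the lowest value of the arrays (2.23) in all 3 groups. Myog (myogenin) had means of 5.72, 3.54 and 2.71 (null above P3 by 2.18, adjusted p = 0.0103 by limma). The mean level of 10 macrophage genes was 4.53 to 5.36 in the null, 3.65 to 3.91 in P3 and 3.50 to 3.55 in P5 MEFs, and 1 of the 10 passed between null and P3 (Ctss, 1.89, adjusted p = 0.0098 by limma). The null arrays lay above all P3 arrays for 7 of these 10, and for 14.2% of the 10009 genes with a signal above 4 on at least 3 arrays. The median difference of the 10 was 1.28. Csf1r, the receptor that defines macrophages, differed by 1.75 without passing (adjusted p = 0.081), as did C1qa by 1.68 (adjusted p = 0.059). The genes of the list that overlapped were Adgre1 (means of 2.93, 2.98 and 2.89), Cd68 (4.27, 4.12 and 4.12) and the leukocyte gene Ptprc (2.29, 2.26 and 2.24). Ptprc lay near the lowest value of the arrays. The mean level of 5 endothelial genes was 3.31 to 3.51 in the null, 3.23 to 3.31 in P3 and 2.88 to 3.09 in P5 MEFs. That of 5 genes of simple epithelium was 5.40 to 5.51, 5.39 to 5.48 and 4.59 to 4.75. Between null and P3, 0 of 5 passed in either list, and only 2 of each 5 had a signal above 4 on at least 3 arrays. The part of these cell types in the differences of the target genes was not tested. In a bulk culture, fewer cells of a type and less RNA per cell cannot be told apart.

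**Figure D1:**
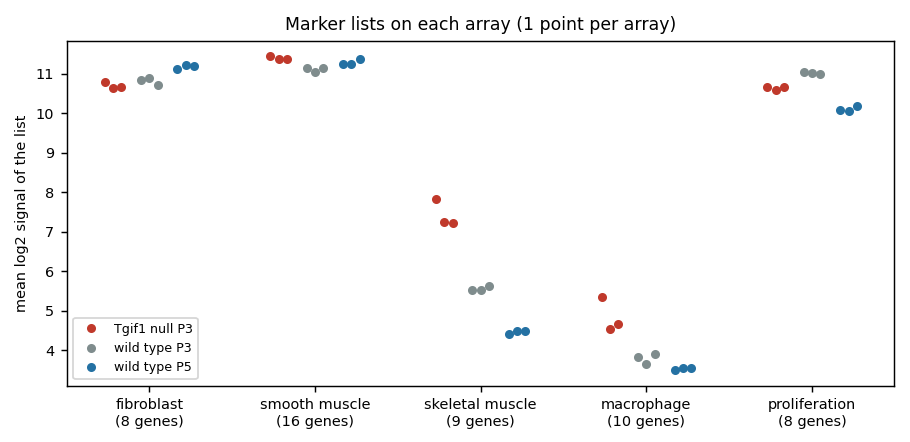
Mean log2 signal of 5 marker lists on each of the 9 arrays, 1 point per array, for Tgif1 null P3 (red), wild type P3 (grey) and wild type P5 (blue). The skeletal muscle list lies at 7.23 to 7.84 on the null arrays against 5.53 to 5.63 in wild type P3, and the proliferation list is lowest in wild type P5.

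The target genes were well expressed in these cells. All 34 had a signal above 4 on at least 3 arrays, with means over the 9 arrays from 6.16 (Nox4) to 14.94 (Acta2). The means of 11 genes were above 12, those of Acta2, Tagln, Fn1, Sparc, Thbs1, Tnc, Lox, Loxl1, Id1, Id3 and Tsc22d1, while 11 lay between 10 and 12 and 12 between 5 and 10. The brightest probe-set of an array reached at least 15.81, so genes such as Acta2 and Tagln lay in the upper part of the scale. A given change in RNA may read as a smaller log2 difference there, which was not tested. Signals were not compared between genes, since each probe-set has its own brightness.

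At passage 3, Tgm2, Cthrc1 and Bhlhe40 were higher in the absence of Tgif1, and 0 genes of the list fell. These 3 genes rose in the null by 1.45, 1.20 and 0.51 on the log2 scale, and the other 31 did not pass the test (limma, adjusted p under 0.05 over all probe-sets). The 3 genes are 8.82% of the 34, where 2.67% of the 10009 genes with a signal above 4 on at least 3 arrays were called higher and 1.92% lower by the same fit. Without the adjustment, 14 members were higher and 2 were lower at p under 0.05 (41.2% and 5.88%), against 13.0% and 13.2% of the 10009 genes. The 3 null arrays lay above all 3 P3 arrays for 14 members (41.2%) and below them for 2 (5.88%), against 14.2% and 13.5% of those 10009 genes. The median difference of the members was 0.14, against -0.01 over the same genes, and 22 differences were positive and 12 negative. Tgm2 was the only one of the 34 left without null replicate 3, without P3 replicate 1 or 3, or without any 1 of the P5 arrays, which enter through the shared estimate of the spread.

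The same genes were also compared between passages in wild type MEFs. From P3 to P5, 9 members rose (Acta2, Cnn1, Fn1, Thbs1, Tgm2, Lox, Id4, Snai2 and Bhlhe40) and 1 fell (Tsc22d1), which is 26.5% and 2.94% of the members, against 10.7% and 12.8% of the 10009 genes. All P5 arrays lay above all P3 arrays for 21 members (61.8%) and below them for 3 (8.82%), against 25.3% and 28.5%. The median difference was 0.21 and that of the 10009 genes -0.03. Leaving out P3 replicate 1 or 3, or any 1 P5 array, left 5 that rose, with Acta2, Fn1, Tgm2 and Bhlhe40 among them each time. Tgm2 and Bhlhe40 were the members that passed in both comparisons, which share the P3 arrays.

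The null at P3 and wild type cells at P5 were then compared directly, which tests whether both differences from P3 were unequal. The null was lower than P5 for 9 members (Acta2, Fn1, Postn, Id1, Id3, Id4, Snai2, Twist1 and Bhlhe40, 26.5%) and higher for 2 (Cthrc1 and Tsc22d1, 5.88%), against 9.15% lower and 10.8% higher among the 10009 genes. Null arrays lay below all P5 arrays for 17 members (50% of them) and above them for 7 (20.6%), against 22.8% and 29.1%. The median difference was -0.13, with 0.04 over the 10009 genes. The count of 9 was between 2 and 8 with 1 array left out. The study called genes at a p under 0.0001 and a difference of at least 0.5, and which p it used is not given in the sources used here. With these thresholds and the moderated F p, Tgm2 and Bhlhe40 were called in both comparisons with P3, and Bhlhe40 between null and P5, where 1.68% (null against P3), 4.35% (P5 against P3) and 4.11% (null against P5) of the 10009 genes were called in either direction. With the p of each comparison instead, a choice made after seeing the data, the called members were Tgm2 between null and P3, Tgm2 and Bhlhe40 between P5 and P3, and Cthrc1 between null and P5, against 1.11%, 4.98% and 4.49% of the 10009 genes.

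**Figure D2:**
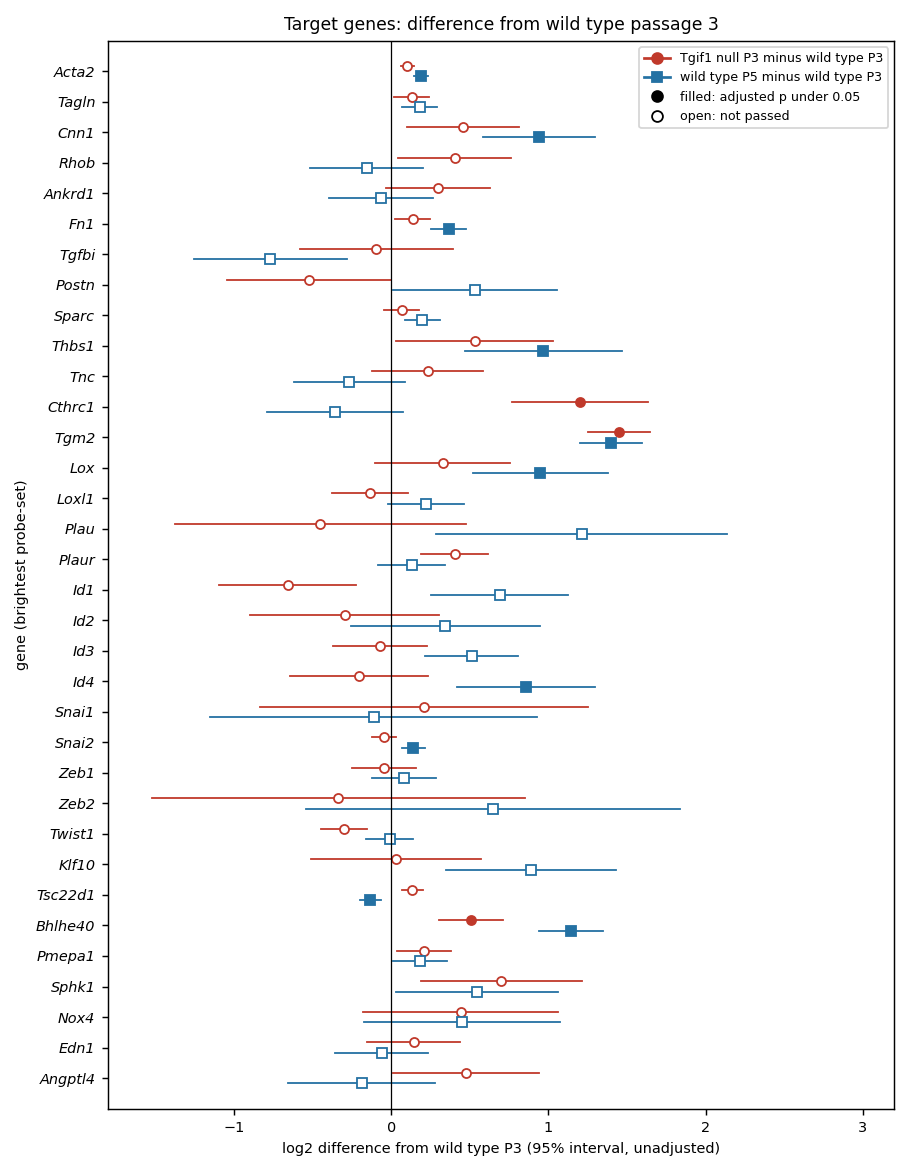
Log2 difference from wild type P3 of the 34 target genes, in order of role, for Tgif1 null P3 (red circles) and wild type P5 (blue squares), with 95% intervals from the limma fit before adjustment; filled symbols have an adjusted p under 0.05. Tgm2 has nearly equal differences (1.45 and 1.40), Cthrc1 is filled only for the null, and the 4 Id genes are left of 0 in the null (Id3 at 0.05 without P3 replicate 3) and right of 0 in P5.

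Of the contractile and cytoskeletal genes, Acta2 (smooth muscle α-actin, the usual mark of the myofibroblast) gave 14.95, 14.96 and 14.94 on the null arrays, 14.82, 14.88 and 14.82 on P3 arrays and 15.02, 15.04 and 15.04 on P5 arrays. The 3 groups did not overlap, with the null between P3 and P5, but the whole range was narrow. The null was 0.10 (SE 0.02) above P3, which missed the threshold (adjusted p = 0.053), while P5 was 0.19 above P3 (adjusted p = 0.0022) and the null was 0.09 below P5 (difference -0.09, adjusted p = 0.037, kept in 3 of 16 alternative settings), by limma. A dimmer probe-set of Acta2, far from the top of the scale, read 7.08, 7.21 and 7.53 in the null, 6.78, 6.92 and 6.59 in P3, and 8.21, 8.61 and 8.43 in P5 MEFs. The groups kept their order there, and the differences were larger, 0.51 for null against P3 (adjusted p = 0.27), 1.65 for P5 against P3 (adjusted p = 0.0025) and -1.14 for null against P5 (adjusted p = 0.0099).

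Cnn1 (calponin, an actin-binding regulator of contraction) was 12.04, 11.95 and 11.77 on the null arrays, 11.58, 11.38 and 11.42 on P3 and 12.22, 12.26 and 12.71 on P5 arrays. Its groups did not overlap either, in the same order as Acta2. P5 was 0.94 (SE 0.15) above P3 (adjusted p = 0.013), and the null difference of 0.46 did not pass (adjusted p = 0.29). Tagln (transgelin, an actin-binding protein) had means of 14.75 in the null, 14.62 in P3 and 14.80 in P5 MEFs and passed in no comparison. Rhob (a small GTPase of the actin cytoskeleton) was 11.40, 11.00 and 10.85, and Ankrd1 (a nuclear ankyrin repeat protein) was 12.14, 11.85 and 11.78, also without a call. The null differences of all 5 genes were positive, from 0.10 to 0.46. Where 2.67% of the 10009 genes were called higher in the null, 0 of these 5 passed. Several of these genes are also made by developing muscle, whose markers were higher in the null as given above, and the part of these in the differences was not tested.

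Among the matrix proteins, Cthrc1 (a secreted protein with a collagen triple helix repeat) was 13.21, 12.65 and 12.67 in the null, 11.71, 11.68 and 11.54 in P3 and 11.07, 11.29 and 11.50 in P5 MEFs. Every null array was brighter than every wild type array. The null was 2.30-fold higher than P3 (log2 difference 1.20, SE 0.18, adjusted p = 0.035) and 2.95-fold higher than P5 (1.56, adjusted p = 0.0050), and the difference between P5 and P3 did not pass (-0.36, adjusted p = 0.38). The call against P3 passed in 5 of 16 alternative settings, 9 of which leave out 1 array, and that against P5 in 16 of 16.

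Fn1 (fibronectin, a main scaffold of the matrix) gave 14.42, 14.31 and 14.34 in the null, 14.25, 14.24 and 14.18 in P3 and 14.53, 14.56 and 14.67 in P5 MEFs. The null again lay between P3 and P5 without overlap. P5 rose by 0.36 (adjusted p = 0.0065) and the null was lower than P5 by the test (-0.23, adjusted p = 0.037, kept in 4 of 16 alternative settings), with 0.14 between null and P3 (adjusted p = 0.33).

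Thbs1 (thrombospondin 1, which can release TGFβ from its latent complex) was 13.96, 14.21 and 14.31 in the null, 13.63, 14.04 and 13.22 in P3 and 14.56, 14.65 and 14.59 in P5 MEFs. The P3 arrays spread widely and overlapped the null, and P5 lay above both. P5 rose by 0.97 (SE 0.21, adjusted p = 0.039), a call kept in 5 of 16 alternative settings, and the null difference of 0.53 did not pass (adjusted p = 0.44).

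Postn (periostin) had means of 11.24 in the null, 11.76 in P3 and 12.29 in P5 MEFs, so that it was the matrix gene with the null farthest below P3 (-0.52, adjusted p = 0.49), and the null was lower than P5 (-1.06, adjusted p = 0.038, kept in 6 of 16 alternative settings). Tgfbi (TGFβ-induced, an adhesion protein) was 9.86, 9.96 and 9.19, and its brightest probe-set passed in no comparison. At 2 dimmer probe-sets Tgfbi fell from P3 to P5, by 0.68 (difference -0.68, adjusted p = 0.0062) and by 0.79 (difference -0.79, adjusted p = 0.0030). Sparc (a collagen-binding protein), at 14.65, 14.58 and 14.78, and Tnc (tenascin C), at 13.98, 13.75 and 13.48, passed nowhere. Of the 7 matrix proteins, 1 thus rose in the null and 2 rose in P5, against 2.67% and 10.7% of the 10009 genes.

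Of the cross-linking enzymes, Tgm2 (tissue transglutaminase) was 10.90, 10.88 and 10.74 in the null, 9.38, 9.26 and 9.53 in P3 and 10.74, 10.74 and 10.88 in P5 MEFs. Null and P5 arrays covered nearly the same range and lay more than 1 above all P3 arrays. The signal was 2.73-fold higher in the null (1.45, SE 0.08, adjusted p = 0.0022) and 2.63-fold higher in P5 (1.40, adjusted p = 0.00055) than in P3, and null and P5 differed by 0.05, with a 95% interval from -0.15 to 0.25. Both calls passed in 16 of 16 alternative settings. The probe-set shown is of a kind that can hybridise to related transcripts, which was not tested. In the null, 3 further probe-sets of Tgm2 rose as well, by 1.39, 1.45 and 1.52. Those with 1.45 and 1.52 are of the same kind, and that with 1.39 is not. Another, dimmer probe-set of Tgm2, also not of that kind, read 0.69 in the null (adjusted p = 0.20 by limma) and 0.64 in P5. The last lay at the lowest value of the arrays.

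Lox (lysyl oxidase) was 13.47, 13.79 and 14.00 in the null, 13.41, 13.70 and 13.17 in P3 and 14.34, 14.47 and 14.31 in P5 MEFs. Null and P3 overlapped, and P5 was above both. It rose in P5 by 0.95 (SE 0.18, adjusted p = 0.025), a call kept in 8 of 16 alternative settings, while the null difference was 0.33 (adjusted p = 0.72). Its related enzyme Loxl1 had means of 12.24, 12.38 and 12.60 and no call at this probe-set. A dimmer probe-set of Loxl1 rose in P5 by 0.37 (adjusted p = 0.022).

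**Figure D3:**
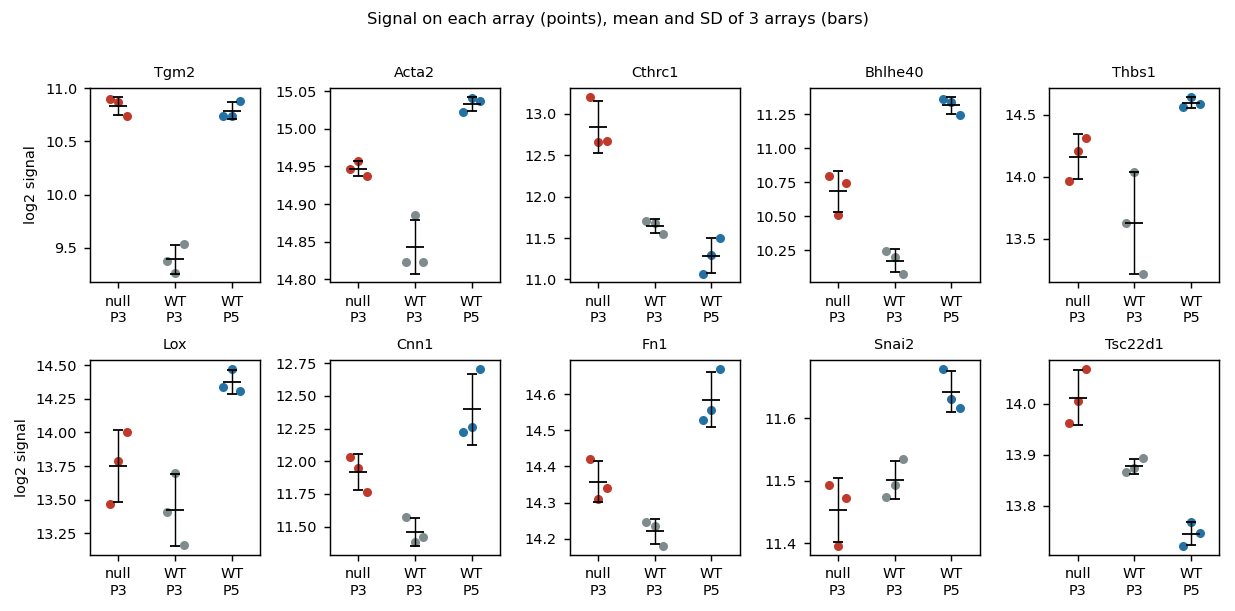
Log2 signal on each array (coloured points) with the mean and SD of 3 arrays (black bars) for 10 target genes in the null (P3) and in wild type MEFs at P3 and P5; each panel has its own axis, which does not start at 0. The null and P5 points of Tgm2 overlap (means of 10.84 and 10.79), the null lies between P3 and P5 for Acta2, Bhlhe40, Cnn1 and Fn1, and it is highest for Cthrc1 and Tsc22d1.

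**Figure D4:**
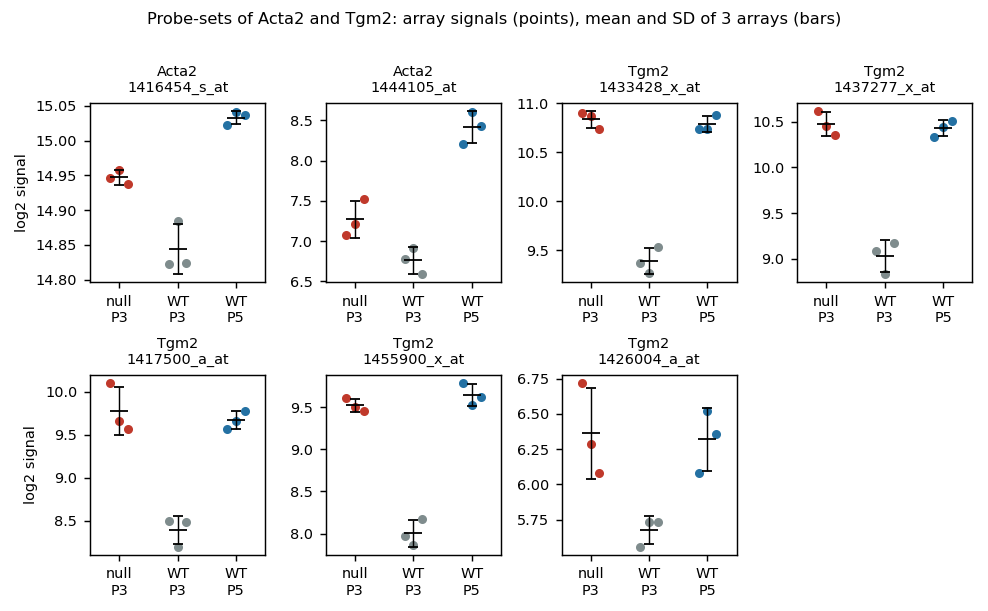
Log2 signal on each array (coloured points) with the mean and SD of 3 arrays (black bars) for the probe-sets of Acta2 and Tgm2, leaving out 1 of each at the lowest value of the arrays; each panel has its own axis. The dimmer probe-set of Acta2 spans 6.59 to 8.61 where the brighter one spans 14.82 to 15.04, and in all 5 probe-sets of Tgm2 the null and P5 means lie above the P3 mean.

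The plasminogen activation genes gave no call. Plau (urokinase) had means of 8.28 in the null, 8.73 in P3 and 9.94 in P5 MEFs, and with an SD of 0.77 in the null it was the most variable member there. All P5 arrays lay above all others, but the P5 difference of 1.21 did not pass (adjusted p = 0.13). Plaur (its receptor) had 10.84, 10.44 and 10.57, with every null array above every wild type array and a difference of 0.40 from P3 (adjusted p = 0.11).

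The Id genes encode inhibitors of basic helix-loop-helix factors and are best known as targets of bone morphogenetic protein. All 4 had a negative difference from P3 in the null and a positive one in P5, except that the null difference of Id3 turned to 0.05 without P3 replicate 3. Id1 ranged from 11.63 to 12.16 in the null, from 12.24 to 12.77 in P3 and from 13.15 to 13.33 in P5 MEFs, and so did not overlap between groups. It was 2.55-fold lower in the null than in P5 (-1.35, SE 0.18, adjusted p = 0.0086), a call kept in 15 of 16 alternative settings, while the differences from P3 were -0.66 in the null (adjusted p = 0.20) and 0.69 in P5 (adjusted p = 0.074).

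Id4 was 8.80, 9.43 and 9.29 in the null, 9.25, 9.60 and 9.28 in P3 and 10.22, 10.34 and 10.13 in P5 MEFs. Null and P3 overlapped, and P5 was higher. It rose in P5 by 0.86 (adjusted p = 0.038) and the null was lower than P5 (-1.06, adjusted p = 0.021), calls kept in 8 and 9 of 16 alternative settings, although 2 dimmer probe-sets gave P5 differences of -0.01 and 0.34 without a call. Id3 had means of 12.66, 12.73 and 13.24 and was lower in the null than in P5 (-0.58, adjusted p = 0.042, kept in 7 of 16). Id2, at 11.03, 11.32 and 11.67, passed in no comparison. Thus 3 of the 4 were lower in the null than in P5, 1 rose from P3 to P5, and 0 passed between null and P3. Over the 10009 genes, 9.15% were lower in the null than in P5 and 10.7% rose from P3 to P5. Between null and P3, 2.67% of those genes were higher in the null and 1.92% lower.

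**Figure D5:**
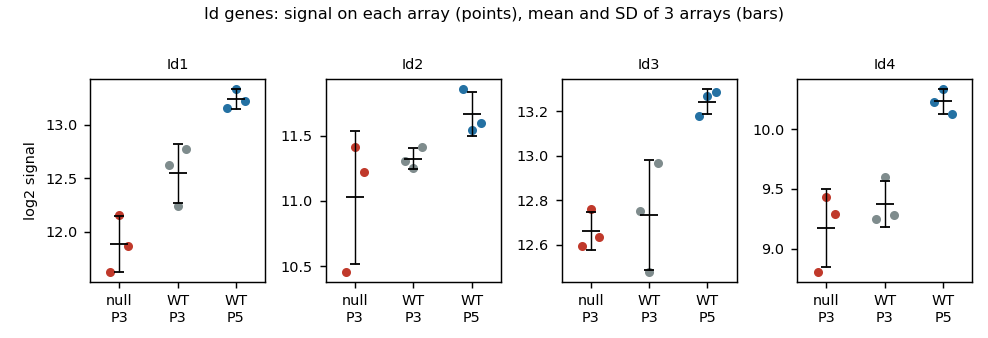
Log2 signal on each array (coloured points) with the mean and SD of 3 arrays (black bars) for the 4 Id genes; each panel has its own axis, which does not start at 0. The P5 arrays are highest in every panel, and the null arrays lie below all P3 arrays only for Id1.

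Of the transcription factors, Bhlhe40 (a helix-loop-helix repressor) gave 10.79, 10.51 and 10.74 in the null, 10.24, 10.20 and 10.08 in P3 and 11.36, 11.34 and 11.24 in P5 MEFs. The groups did not overlap, with the null in between. It was 1.42-fold higher in the null (0.51, SE 0.08) at an adjusted p of 0.0497, just inside the threshold, and this call passed in 5 of 16 alternative settings. The rise of 1.14 in P5 (2.21-fold, adjusted p = 0.0011) and the difference of -0.63 between null and P5 (adjusted p = 0.0087) passed in all 16.

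Tsc22d1 (a leucine zipper protein first found as a TGFβ-induced gene) gave 13.96, 14.00 and 14.07 in the null, 13.87, 13.87 and 13.89 in P3 and 13.72, 13.77 and 13.75 in P5 MEFs. The groups were separate and in the order null, P3, P5. The null was 0.27 above P5 (adjusted p = 0.0037), P5 fell by 0.13 (difference -0.13, adjusted p = 0.036, kept in 4 of 16 alternative settings), and the null difference from P3 was 0.13 (adjusted p = 0.091). Its dimmer probe-sets passed in no comparison, and the next brightest gave 0.21 for null against P3 and 0.01 for P5 against P3.

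Snai2 (Slug, a zinc finger repressor of the epithelial-mesenchymal transition) gave 11.49, 11.40 and 11.47 in the null, 11.47, 11.49 and 11.53 in P3 and 11.68, 11.63 and 11.62 in P5 MEFs. Null and P3 overlapped, and P5 lay slightly above both. It rose in P5 by 0.14 (adjusted p = 0.044, kept in 3 of 16 alternative settings), and by 0.55 at a dimmer probe-set (adjusted p = 0.0034). Twist1 had means of 9.42, 9.72 and 9.71 and was lower in the null than in P5 (-0.29, adjusted p = 0.043, kept in 4 of 16), with -0.30 between null and P3 (adjusted p = 0.088). Klf10 (the TGFβ-inducible early gene) was 8.34, 8.31 and 9.20, with every P5 array above every P3 array and an adjusted p of 0.066. Snai1, Zeb1 and Zeb2 passed nowhere, and the Snai1 and Zeb2 intervals were wide, with SEs of 0.43 and 0.49.

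The feedback, signalling and secreted factors gave no call at their brightest probe-sets. Pmepa1 (a feedback inhibitor that binds Smads) had means of 11.86 in the null, 11.65 in P3 and 11.84 in P5 MEFs. Sphk1 (sphingosine kinase) had 7.61, 6.91 and 7.46, with a null difference of 0.70 (adjusted p = 0.26), and a dimmer probe-set rose in P5 by 1.25 (adjusted p = 0.0035). Dimmer probe-sets also called Pmepa1 in P5 (0.74, adjusted p = 0.029). Nox4 (an NADPH oxidase) was 6.31, 5.87 and 6.32, Edn1 (endothelin 1) 7.29, 7.14 and 7.09, and Angptl4 (an inhibitor of lipoprotein lipase) 7.46, 6.99 and 6.80. All 5 null differences were positive, from 0.14 to 0.70, and 0 passed, where 2.67% of the 10009 genes were called higher.

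Of all 77 probe-sets, 67 had a signal above 4 on at least 3 arrays, as did 18428 probe-sets of the array. Between null and P3, 6 of the 67 rose and 0 fell, against 2.14% and 1.60% of the 18428. Between P5 and P3, 19 rose and 3 fell, against 9.95% and 10.4%, and between null and P5 4 were higher and 13 lower, against 8.54% and 8.32%. The calls that rested on a dimmer probe-set alone were those of Sphk1, Loxl1, Tgfbi and Pmepa1 between P5 and P3, and of Sphk1, Loxl1 and Tgfbi between null and P5.

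Most of the genes without a call in the null had an interval that did not reach a 2-fold rise. Of these 31 genes, the 95% interval ended below 1 for 27 and lay within 1 on both sides of 0 for 23, and within 0.5 for 12. The members varied more between the null cultures than between the wild type ones. The median SD of the members was 0.21 in the null, 0.12 in P3 and 0.08 in P5 MEFs, against 0.13, 0.12 and 0.08 over the 10009 genes, and the null had the largest SD for 22 of the 34. Null replicate 1 was the array farthest from the other two for 19 members, as it was for 55.4% of the 10009 genes, and P3 replicate 2 was so for 20 members and 55.9% of the genes.

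Genes that carry the TGFβ signal itself were followed with lists of ligands, receptors, Smads and inhibitors. Between null and P3, 0 of 6 ligands, 0 of 8 receptors, 0 of 6 Smads and 0 of 8 inhibitors passed in either direction. Over the 10009 genes, 2.67% were called higher in the null and 1.92% lower. Only 7 of the 8 receptors and 5 of the 6 Smads had a signal above 4 on at least 3 arrays. The other receptor (Acvrl1) and the other Smad (Smad9) lay near the lowest value of the arrays. Ltbp1, a latent TGFβ binding protein that stores the ligand in the matrix, rose in the null by 0.54 (adjusted p = 0.0145), 1 of 3 measured genes of the latent complex. The Smad differences were small, between -0.07 (Smad1) and 0.01 (Smad3).

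Over the 10009 genes, 10.7% rose from P3 to P5 and 12.8% fell. Of the 6 ligands 3 rose, Tgfb2 by 0.72 (adjusted p = 0.012), Tgfb3 by 0.72 (adjusted p = 0.042) and the activin subunit Inhba by 0.62 (adjusted p = 0.020). All 3 latent complex genes rose, Ltbp2 by 1.70, Ltbp3 by 0.65 and Ltbp1 by 0.32. The inhibitory Smad6 rose by 0.74 (adjusted p = 0.023), and Tgif2, the close relative of Tgif1, fell by 0.90 (adjusted p = 0.013). Of the receptors 1 fell (Acvr1b, -0.61, adjusted p = 0.0019), and of the other Smads 1 fell (Smad5, -0.24, adjusted p = 0.012). In the null, Tgif2 was 0.70 above P3 without passing (adjusted p = 0.078), and it was 1.61 above P5 (adjusted p = 0.0021). With the study's thresholds and limma's moderated F p (5.519e-05 for Tgif2), it was called higher in the null than in P3. That p tests all 3 groups together and not this comparison alone.

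A further list of 10 known TGFβ targets outside the members had 9 measured genes. Between null and P3, 0 of 9 passed, with a median difference of 0.23, where 2.67% of the 10009 genes were called higher and 1.92% lower. From P3 to P5, 4 of the 9 rose, against 10.7% of the 10009 genes. They were Junb by 0.84 (adjusted p = 0.0023), Cdkn2b (the p15 inhibitor of cyclin-dependent kinases) by 0.51 (adjusted p = 0.0072), Ccn2 (connective tissue growth factor) by 0.31 (adjusted p = 0.030) and Col1a2 by 0.26. The cyclin-dependent kinase inhibitor Cdkn2b and Ccn2 were 0.36 and 0.34 above P3 in the null, at adjusted p of 0.063 and 0.061.

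Of 16 further smooth muscle contractile genes, all had a positive null difference as deposited (15 with median centring, and 13 to 16 with 1 array left out), with a median of 0.09. Of the 16, 1 passed, where 2.67% of the 10009 genes were called higher. It was the muscle intermediate filament gene Des (1.09, adjusted p = 0.044 by limma), which is also a skeletal muscle marker. In P5, 4 of the 16 rose, Lmod1 by 0.80, Myl9 by 0.68, Tpm2 by 0.47 and Vcl by 0.39, against 10.7% of the 10009 genes. Proliferation genes moved beside the targets. In the null 2 of 8 measured fell (Bub1b, -0.69, and Mcm5, -0.55), against 1.92% of the 10009 genes. In P5 all 8 proliferation genes fell, against 12.8%, with a median difference of -0.88. Their part in the differences of the target genes was not tested.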

How the data were processed

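Expression was measured on 9 Affymetrix mouse arrays, 3 per group, each from a separate culture as the study describes. The authors deposited log2 signals made with GCRMA, which corrects probes for background from their sequence, normalizes arrays by quantiles and summarises probe-sets. Besides GCRMA, limma is named in the submitters' processing notes, both with versions not given in the sources used here. No further normalization was applied. The number of arrays limits the precision, and a gene near the lowest value (2.23) cannot show a decrease.

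Probe-sets were named through GEO's platform annotation and RefSeq gene numbers. Of 45101, 34958 had 1 symbol, 932 several and 9211 none here. In R 4.3.3 with limma 3.58.1, a mean per group was fitted over all 9 arrays, with the default empirical Bayes step, and adjusted p-values are Benjamini-Hochberg over all probe-sets. The fit was tested on simulated data. Both differences from P3 share the P3 arrays. An exact permutation test of 3 against 3 arrays cannot go below 0.1 and was not used.

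All 34 measured members are named. Values on each array are given for Tgm2, Acta2, the genes called between null and P3, and up to 12 others called between P5 and P3. Probe-sets of a member that differ in call are given. Genes of other lists are those called between null and P3 and up to 3 per list by p in P5, with Cdkn2b, Ccn2, Tgif2 and a few further members of those lists chosen after their values were seen. The members and lists were chosen with earlier results of these data known. Alternatives were another prior, a filter on dim probe-sets, quantile normalization, median centring, a replicate block, 6 arrays alone, the mean of a gene's probe-sets, the thresholds of the study (p under 0.0001, difference of at least 0.5) with the F p or, added after seeing the data, with the p of each comparison, and each array left out.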

Additional observations from a re-analysis of the deposited data

How the results depend on the processing

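The log2 differences of the members given array by array kept their sign in every alternative run, and the calls of Tgm2 against P3 held in all of them. Counts moved more. Between null and P3, 3 members rose, but 1 (Tgm2) with a prior that follows the signal and resists extremes, 1 with the replicate block and 1 with the 6 arrays alone, while the filter on dim probe-sets added Plaur as higher and 2 as lower (Id1 and Twist1). Between P5 and P3, 9 rose, but 4 with that prior, 5 with the replicate block and 2 by the study's thresholds with the F p. The 1 that fell became 0 with that prior, quantile normalization, the replicate block or those thresholds, and 2 with median centring or 6 arrays. Between null and P5, the 2 higher became 6 with the filter, 1 with that prior and 0 by those thresholds, and the 9 lower became 2 with that prior, 2 with the replicate block, 4 with 6 arrays and 1 by those thresholds. With pairwise p instead of the F p, chosen after seeing the data, 1 rose between null and P3, 2 rose and 0 fell between P5 and P3, and 1 was higher and 0 lower between null and P5. The mean of all probe-sets moved the median to 0.31 for P5 against P3 and to -0.30 for null against P5. With 1 array left out, 1 to 2 members rose and 0 fell between null and P3 (median 0.10 to 0.15), 5 to 13 rose and 0 to 2 fell between P5 and P3 (median 0.19 to 0.24), and 2 to 3 were higher and 2 to 8 lower between null and P5 (median -0.18 to -0.10). Leaving out null replicate 3, P3 replicate 1 or 3, or any P5 array left 1 rise between null and P3 (Tgm2), leaving out P3 replicate 1 or 3 or any P5 array left 5 rises in P5, and leaving out null replicate 2 or 3, P3 replicate 1 or 3, or any P5 array left 2 to 5 lower in the null than in P5. The cause of these shifts was not tested beyond the fewer probe-sets or arrays in the fit. Deviations of same-numbered arrays correlated at 0.39, 0.20 and -0.49 between null and P3. The values were -0.05, 0.16 and 0.14 between P5 and P3, and -0.20, 0.10 and -0.16 between null and P5. With 3 arrays per group, these cannot show whether replicate numbers pair the arrays.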
